A study of Mus musculus with 10 samples.

Results

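The genes of the basic helix-loop-helix (bHLH) network around Tal1 were examined: Tal1, Lyl1 and Tal2, the E protein genes Tcf3 (E2A), Tcf4 (E2-2) and Tcf12 (HEB), and the Id genes Id1, Id2, Id3 and Id4. They were taken by name, and Ensembl identifiers placed 10 of 10 among the 21868 genes of the RNA count table. Tcf3 here is the E2A gene and not Tcf7l1, which older literature also called Tcf3. To these were added the Ldb1 peaks of a 200 kb window around Tal1 and a 100 kb window around Lyl1 in the mm9 build, 4 and 3 of the 4252 peaks deposited.

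The cells were Flk1+ progenitors, sorted for the receptor that Kdr encodes, from embryoid bodies grown from mouse embryonic stem cells. RNA of 2 groups was compared, Ldb1+/+ (WT) and Ldb1-/- (KO), with 4 libraries each. Libraries 1 and 2 of a genotype differed by about sampling noise, as did 3 and 4, so they were summed to samples A and B (n = 2 per genotype, 22674679 to 26775787 counts each). Each genotype comes from its own embryonic stem cells, so Ldb1 loss and other differences between the cells cannot be told apart. The labels name no separate cultures, the number of clones or the embryoid body day of the RNA samples, and p-values measure only the spread between these samples. The peaks compare 1 library made with an Ldb1 antibody and 1 made with none, from cells of embryoid bodies at day 4, with no genotype named.

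Factors of the bHLH class bind DNA as dimers. Tal1 and Lyl1 are tissue-restricted members that pair with the widely made E proteins and bind the E-box, CANNTG, and in blood cells they sit in a complex with Lmo2, a GATA factor and the adaptor Ldb1. Tal1 is required for blood to form at all, Lyl1 is a close relative with overlapping roles in progenitors, and Tal2 is a relative known mainly from the developing brain. Id proteins have the helix-loop-helix but no basic region, so they take up E proteins into dimers that do not bind DNA, and Id1, Id2 and Id3 are direct targets of BMP signals through Smad factors.

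The start regions of the 3 genes with the clearest differences below are shown so that their E-boxes and GATA letters can be seen. They are RefSeq sequences of the GRCm38.p6 build, from 250 bases before to 50 after a start site, and CANNTG and GATA (TATC where it lies on the other strand) are in capitals. Tal1 has 2 start sites in the table, at chr4:115056176-115056475 and chr4:115057561-115057860 on the plus strand, Lyl1 has 1 at chr8:84701207-84701506 on the plus strand and Id2 has 1 at chr12:25096043-25096342 on the minus strand.
Tal1, upstream start: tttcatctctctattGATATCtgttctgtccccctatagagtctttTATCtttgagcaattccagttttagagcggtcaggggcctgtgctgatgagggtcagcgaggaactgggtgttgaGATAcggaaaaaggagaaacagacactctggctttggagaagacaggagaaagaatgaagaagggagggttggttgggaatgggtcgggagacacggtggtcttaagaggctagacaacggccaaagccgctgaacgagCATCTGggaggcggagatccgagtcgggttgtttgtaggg
Tal1, downstream start: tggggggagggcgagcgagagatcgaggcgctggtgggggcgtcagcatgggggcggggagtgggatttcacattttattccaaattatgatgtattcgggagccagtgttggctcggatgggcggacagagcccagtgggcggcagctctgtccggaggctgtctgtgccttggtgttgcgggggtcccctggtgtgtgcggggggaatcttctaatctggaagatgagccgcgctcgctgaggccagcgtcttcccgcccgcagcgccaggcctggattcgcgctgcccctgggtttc
Lyl1: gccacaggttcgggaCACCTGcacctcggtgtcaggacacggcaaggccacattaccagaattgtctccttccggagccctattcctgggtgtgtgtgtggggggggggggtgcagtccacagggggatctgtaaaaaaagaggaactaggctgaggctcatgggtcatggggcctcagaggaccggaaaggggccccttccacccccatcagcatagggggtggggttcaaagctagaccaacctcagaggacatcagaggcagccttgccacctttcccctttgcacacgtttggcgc
Id2: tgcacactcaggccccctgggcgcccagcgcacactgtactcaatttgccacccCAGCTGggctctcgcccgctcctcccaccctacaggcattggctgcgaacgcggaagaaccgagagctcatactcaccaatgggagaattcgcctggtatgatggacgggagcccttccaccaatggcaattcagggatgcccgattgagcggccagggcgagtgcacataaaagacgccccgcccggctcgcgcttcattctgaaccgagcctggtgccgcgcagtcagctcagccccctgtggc

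Both strands were searched for CANNTG, for GATA, for GGAA, the core of ETS factor sites, for GGCGCC, a GC-rich Smad-type element, and for CTG followed after 7 or 8 bases by GATA, a spacing known from Tal1 and GATA complexes. The upstream Tal1 region held 4 GATA matches, 2 of which overlap in GATATC, and 1 CANNTG. Among the start regions of members that were searched it was the only one with the composite, ctgggtgttgaGATA, which 4.82% of 32851 start regions hold. The downstream Tal1 region held neither GATA nor CANNTG and 4 GGAA. Lyl1 had 6 GGAA, 1 CANNTG and 0 GATA, against a median of 3 GGAA over all start regions. Id2 had 1 CANNTG and 1 GGCGCC, a motif that Id4 also held and that 11.9% of all start regions hold, while Id3 had 0 GGCGCC and 2 GATA. Over all start regions CANNTG was in 72.3%, GATA in 57.9% and GGAA in 96.0%, so a match is a description of the letters and not of a bound site. Of the 10 genes, 8 had start regions that were searched, and Tcf4 and Id1 were not searched.

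The highest and the second highest peak of the whole Ldb1 list lay in these windows. In the Tal1 window the peak at chr4:114768020-114768970 reached a coverage of 243 with the antibody against 11 in the control, with the smallest adjusted p of the authors' list (3.11e-54). In the Lyl1 window the peak at chr8:87224880-87226020 had 228 against 23 in the control (adjusted p = 1.77e-40, the fourth smallest). Over all peaks the median coverage was 24 with the antibody and 5 without, and the lowest coverage with it was 20. These heights and p-values are the authors' own, from 1 library of each kind, so they have no replicate error.

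**Figure D1:**
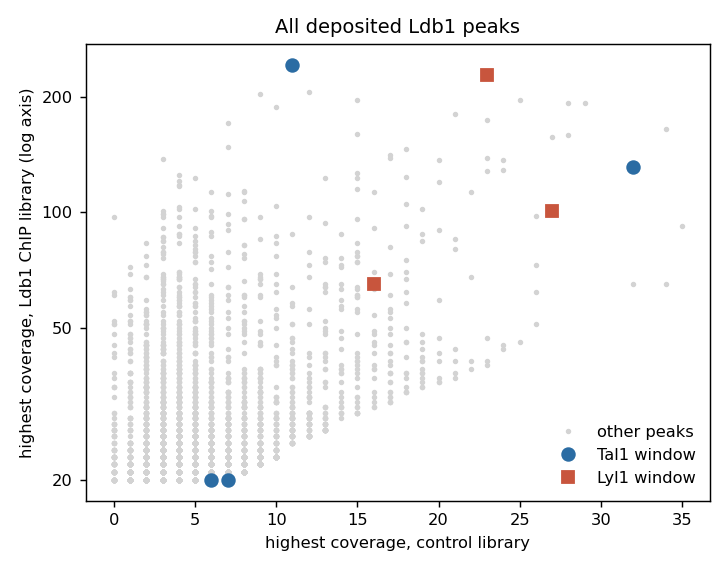
Highest coverage of each of the 4252 deposited Ldb1 peaks in the control library (x axis) and in the Ldb1 ChIP library (y axis, log scale), with the peaks of the Tal1 window as circles and of the Lyl1 window as squares. One circle at 243 and one square at 228 stand at the top, and 2 circles lie at the floor of 20.

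The other peaks of the Tal1 window were unequal. A peak at chr4:114728870-114729710 reached 131 in the ChIP library, rank 25 of the list, and 32 in the control (adjusted p = 6.89e-14). Its summit lay at -39229 bases from that of the highest peak. Weak peaks at chr4:114672560-114673130 and chr4:114748030-114748540 had the list's lowest ChIP coverage, 20, with control values of 6 and 7 (adjusted p = 0.00452 and 0.00698). The second of these had its summit 19013 bases after that of the 131-coverage peak. Tal1 is known to have a blood stem cell and endothelial enhancer and, farther downstream, an erythroid enhancer. No mm9 annotation was used here, so the peaks were not placed against them or against the start regions above, which are of another build.

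The Lyl1 window held 2 neighbouring peaks and a distant one. The peak at chr8:87223530-87224390, with a coverage of 101 and a control of 27 (rank 52, adjusted p = 5.35e-10), had its summit 1609 bases before that of the 228-coverage peak. The third, at chr8:87254440-87255300, had 65 against 16 (rank 173, adjusted p = 3.73e-07) and lay 29252 bases after it. Control coverage was also high here. The 131-coverage peak of Tal1 had a control value that 0.118% of all peaks reach, and for the 3 Lyl1 peaks, in genome order, that share was 0.235%, 0.635% and 3.08%. The highest Tal1 peak had a ChIP to control ratio of 22.1, against 9.91 for the highest Lyl1 peak and 2.86 to 4.09 for the other 5, and how the control was scaled is not given in the sources.

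The number of peaks in the windows was less unusual than their height. Around 17.5% of all peaks, at least 4 peaks (the peak itself included) lay within a stretch as long as the Tal1 window, and around 17.3% at least 3 lay within one as long as the Lyl1 window. By coverage, 0.588% of peaks were as high as the 131-coverage peak of Tal1 and 1.27% as high as the 101-coverage peak of Lyl1.

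**Figure D2:**
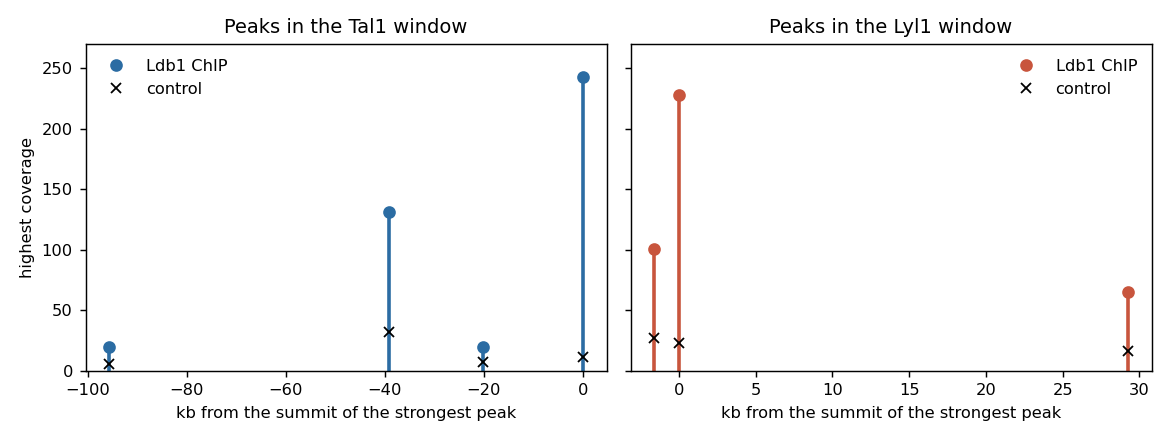
Highest coverage of the 4 peaks of the Tal1 window and the 3 of the Lyl1 window (y axis) by distance of their summits from that of the window's strongest peak in kb (x axis), with dots for the Ldb1 ChIP and crosses for the control library. In the Tal1 window 2 peaks reach 243 and 131 in the ChIP library and 2 lie at 20, and in the Lyl1 window the 2 highest lie side by side.

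In the RNA, Tal1, Lyl1 and Tal2 stood lower in both KO samples than in both WT samples, Id2 stood higher in both, and the E protein genes overlapped. No member passed the edgeR quasi-likelihood test over all genes at an adjusted p of 0.05, where 0.125% of 16785 genes were called lower and 0.0596% higher. All 10 members passed the filter on low counts. At an unadjusted p under 0.05, edgeR gave 2 members lower (Tal1 and Lyl1) and 1 higher (Id2), against 7.86% and 7.61% of all genes. DESeq2 called the same 2 lower and the same 1 higher, against 3.85% and 3.69% of the 15483 genes to which it gave an adjusted p, and limma-voom called 0. KO lay below WT without overlap in 3 members and above it in 1, a pattern that 22.4% and 23.2% of all genes show, so it says little by itself with 2 samples a group.

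Marker lists were read to compare the samples. In bulk RNA, fewer cells of a type and less RNA per cell cannot be told apart. The 8 primitive blood markers summed to 83.6 and 104 CPM for WT against 7.04 and 5.39 CPM for KO. All 7 tested lay below 0, with Hbb-bh1 at 0 in both KO samples. Of these sums Itga2b alone made up 53.2 and 56.8 CPM for WT and 3.46 and 2.65 CPM for KO. The 8 endothelial markers summed to 736 and 373 CPM for WT against 479 and 202 CPM for KO, with 6 of 8 below 0, so the blood sum was lower in both KO samples, as Tal1 and Lyl1 were, and the endothelial sum overlapped. The 9 smooth muscle and mesenchyme markers summed to 757 and 1004 CPM for WT against 1791 and 3368 CPM for KO, in the order of the Id2 values, with 9 of 9 above 0. The 8 primitive streak markers summed to 19.6 and 236 CPM for WT against 58.0 and 25.9 CPM for KO, and the 8 pluripotency markers to 1916 and 510 CPM for WT against 860 and 1105 CPM for KO, with 8 of 8 and 7 of 8 below 0, so WT A and B also differed from each other. The 6 cardiac markers summed to 29.6 and 279 CPM for WT against 34.6 and 23.4 CPM for KO, with 4 of 6 below 0. Of the tested endoderm markers 5 of 6 lay below 0, of the leukocyte markers 4 of 5 and of the neuroectoderm markers 1 of 4. The 7 endoderm markers summed to 89.2 and 39.5 CPM for WT against 25.7 and 11.6 CPM for KO. Of these sums Cubn alone made up 57.3 and 5.59 CPM for WT and 5.79 and 4.64 CPM for KO. The 6 leukocyte markers summed to 48.5 and 35.8 CPM for WT against 18.1 and 19.9 CPM for KO. The 5 neuroectoderm markers in the table summed to 258 and 228 CPM for WT against 402 and 400 CPM for KO. Among the neuroectoderm markers Nes alone stood higher in both KO samples, at 111 and 109 CPM for WT against 257 and 279 CPM for KO. Pax6, Otx2 and Tubb3 overlapped between genotypes (log2 fold changes 0.004, 0.05 and -0.09). The part of the marker differences in the values of the 10 genes was not tested.

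Lyl1 had the largest difference of the 10. Its normalised counts per 1000000 (CPM) were 12.1 and 9.36 for WT A and B against 3.11 and 0.859 for KO A and B. Both KO samples were low, and KO B rests on 22 counts. The means were 10.7 ± 1.95 CPM in WT and 1.98 ± 1.59 CPM in KO (SD, n = 2), 5.41-fold lower, and the edgeR log2 fold change was -2.44 (SE 0.63, 95% interval -4.08 to -0.81, adjusted p = 0.179). DESeq2 gave an adjusted p of 0.00261. Without KO sample A the log2 fold change was -3.63 and without KO sample B it was -1.79. Here and below, a fit without a sample leaves 1 of that genotype, which is assumed to vary like the 2 of the other. Its p would rest on the spread of those 2 alone, so for the members only the log2 fold change is given. The genes of chromosome 8, where Lyl1 lies, stood at a median log2 difference of 0.25 in KO, and with chromosome medians subtracted Lyl1 stood at -2.69 (edgeR adjusted p = 0.217). The gene model of Nfix overlaps that of Lyl1 and no source says whether counting used strand, so reads could be shared. Nfix had 5.08 and 5.02 CPM for WT against 3.84 and 3.86 CPM for KO (log2 fold change -0.39, SE 0.26, edgeR adjusted p = 0.568).

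Tal1, the master factor of the set, stood at 48.6 and 73.8 CPM for WT A and B against 36.8 and 19.98 CPM for KO A and B. The groups did not overlap, but WT A and KO A lay closer to each other than the 2 WT samples did. Its KO mean was 0.464 of the WT mean, and the edgeR log2 fold change was -1.11 (SE 0.37, 95% interval -2.08 to -0.13), with an unadjusted p of 0.0333 and an adjusted p of 0.265. By DESeq2 its adjusted p was 0.0355. Without KO sample B the log2 fold change was -0.73 and without KO sample A it was -1.61.

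Tal2 had 3.88 and 8.23 CPM for WT against 3.50 and 2.26 CPM for KO. The lowest WT sample and the highest KO sample nearly met. Its log2 fold change was -1.07 (SE 0.46, edgeR adjusted p = 0.357), and without WT sample A it was -1.52.

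**Figure D3:**
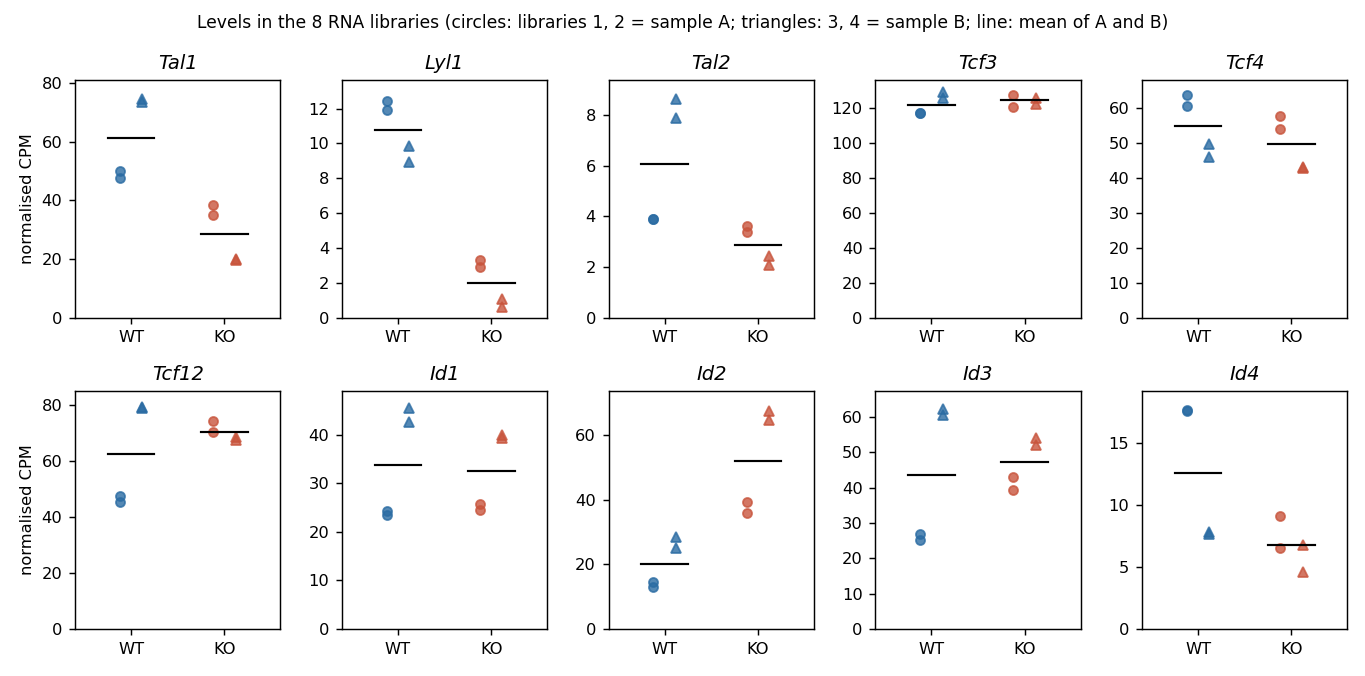
Normalised CPM (y axis, from 0) of the 10 genes in the 4 WT and 4 KO libraries, with circles for libraries 1 and 2 (sample A), triangles for 3 and 4 (sample B) and lines for the mean of A and B. Tal1, Lyl1 and Tal2 lie lower and Id2 higher in KO without overlap, and Tcf3 lies between 117 and 129 CPM in all libraries.

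The E protein genes had the smallest standard errors of the 10. Tcf3 stood at 116 and 127 CPM for WT against 124 and 125 CPM for KO, so the genotypes overlapped within a narrow range. Its log2 fold change was 0.03 (SE 0.12, edgeR adjusted p = 0.946), with a 95% interval of -0.28 to 0.34. Tcf4 stood at 61.9 and 47.7 CPM for WT against 55.9 and 43.4 CPM for KO (-0.14, interval -0.64 to 0.36, adjusted p = 0.830). Tcf12 stood at 46.2 and 78.8 CPM for WT against 72.2 and 68.6 CPM for KO (0.17, interval -0.52 to 0.86, adjusted p = 0.848). WT A alone was low for Tcf12. Without WT sample B, which leaves WT A as the reference, Tcf12 stood at 0.61, and without WT sample A it stood at -0.17.

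Among the Id genes, Id2 alone stood higher in both KO samples. It had 13.6 and 26.7 CPM for WT against 37.5 and 66.5 CPM for KO. The groups did not overlap, and sample B was above A in both genotypes. The means were 20.1 ± 9.24 CPM for WT and 52.0 ± 20.6 CPM for KO (SD, n = 2), a 2.58-fold difference. The log2 fold change was 1.37 (SE 0.45, interval 0.18 to 2.55, edgeR adjusted p = 0.261), and DESeq2 gave an adjusted p of 0.0172. Without KO sample B it was 0.89, and without WT sample B it was 1.94.

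Id1 and Id3 differed more between the samples of a genotype than between genotypes. Id1 stood at 23.8 and 44.0 CPM for WT against 25.2 and 40.1 CPM for KO (log2 fold change -0.06, edgeR interval -1.06 to 0.95, adjusted p = 0.970). Id3 stood at 25.9 and 61.3 CPM for WT against 41.1 and 53.5 CPM for KO (0.12, interval -1.07 to 1.31, adjusted p = 0.947). Both intervals reach to about a log2 unit on each side of 0, so differences of that size are not shown to be absent. Without WT sample B, Id3 stood at 0.87. Id4, known best from neural and germ cells, stood at 17.5 and 7.70 CPM for WT against 7.82 and 5.74 CPM for KO. WT B lay within the KO range and WT A alone was high, and the log2 fold change was -0.89 (SE 0.44, edgeR adjusted p = 0.440). Without WT sample B it was -1.36 and without WT sample A it was -0.19.

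**Figure D4:**
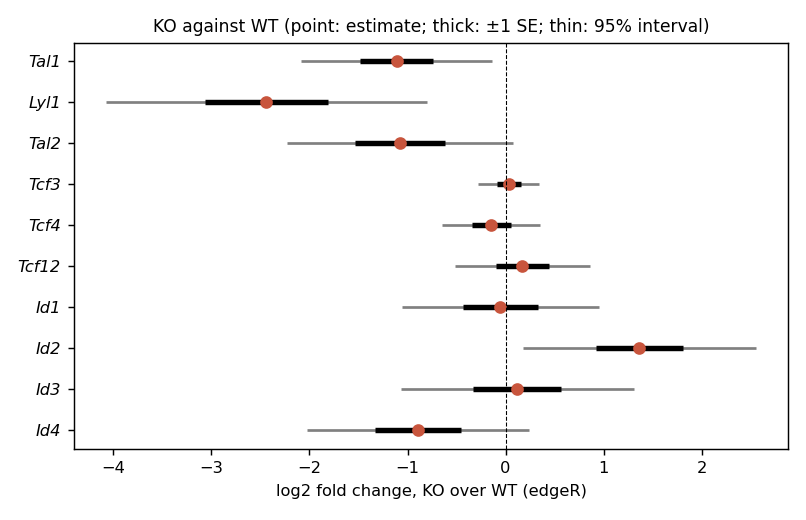
The edgeR log2 fold change of KO over WT (x axis) for the 10 genes, with points for estimates, thick bars for 1 SE and thin bars for the 95% interval before adjustment over all genes. The intervals of Tal1, Lyl1 and Id2 do not reach 0, and that of Tcf3 is the narrowest.

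Levels can be compared between genes only per length of transcript. In CPM per 1000 bases, averaged over the 4 samples, the order was Id3 (47.9), Tcf3 (41.7), Id1 (28.7), Id2 (28.4), Tcf12 (22.1), Tcf4 (12.3), Tal1 (10.6), Id4 (5.84), Tal2 (3.91) and Lyl1 (3.53). Of the 9 neighbouring pairs in this order, 7 had overlapping ranges over the samples. The exceptions were Tcf3 above Id1, with a lowest value of 39.5 against a highest of 37.9, and Tcf12 above Tcf4, with 15.4 against 14.6. Tcf3 made 53.0% to 56.9% of the summed E protein level in every sample.

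The sums of the 3 classes per length set these levels side by side. The E protein genes summed to 69.5 and 80.4 in WT and 79.2 and 75.4 in KO, so the samples overlapped. Tal1, Lyl1 and Tal2 summed to 21.7 and 29.9 for WT against 13.5 and 7.20 for KO. As a ratio to the E protein sum this was 0.312 and 0.372 in WT and 0.171 and 0.0954 in KO, with no overlap. Id genes summed to 69.1 and 128 in WT and 99.3 and 147 in KO, a ratio to the E protein sum of 0.995 and 1.59 in WT and 1.25 and 1.95 in KO, which overlapped. Within the Id sum, the share of Id2 was 15.5% and 16.4% in WT and 29.7% and 35.7% in KO. Within the sum of Tal1, Lyl1 and Tal2, the share of Lyl1 was 31.1% and 17.4% in WT and 12.8% and 6.63% in KO. The smallest exact permutation p for 2 against 2 samples is 0.333, and these sums were not tested. RNA levels do not give protein levels.

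**Figure D5:**
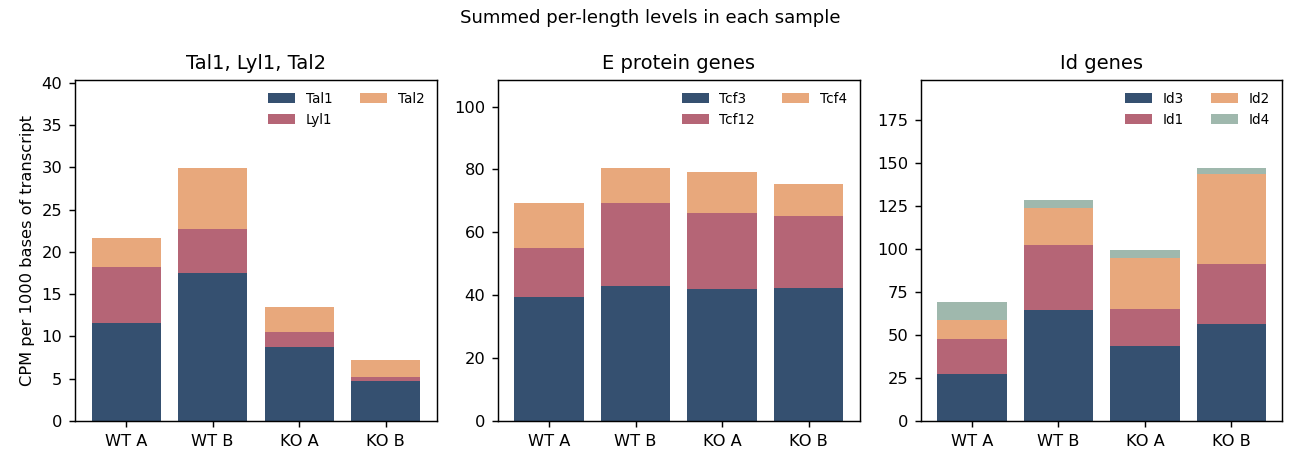
Stacked levels per 1000 bases of transcript (y axis, CPM, from 0) of Tal1, Lyl1 and Tal2, of the E protein genes and of the Id genes in each of the 4 samples (x axis). The first stack is lower in both KO samples, the second is between 69.5 and 80.4 throughout, and in the third the Id2 part is larger in KO.

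Genes next to Tal1 and Lyl1 in the RefSeq gene order were read as well. Beside Tal1, Pdzk1ip1, its neighbour on 1 side, had 5.59 and 8.04 CPM for WT against 2.81 and 1.33 CPM for KO (log2 fold change -1.72, SE 0.45, edgeR adjusted p = 0.166, DESeq2 0.0241). Both its KO samples lay below both WT samples, as for Tal1. Cyp4x1, the next gene on that side, stood at 249 and 227 CPM for WT against 185 and 147 CPM for KO (-0.52, SE 0.16, edgeR adjusted p = 0.207), and Cyp4a12a beyond it had at most 0.0390 CPM. On the other side Stil, a centriole gene, stood at 0.06 (SE 0.17), Cmpk1 at 0.19 (SE 0.14) and Foxe3 had at most 0.0432 CPM.

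Beside Lyl1 no neighbour had a difference of its size. The log2 fold changes were 0.48 (SE 0.17) for the immediate early gene Ier2, 0.31 (SE 0.13) for Nacc1 and -0.05 (SE 0.12) for the tRNA methyltransferase gene Trmt1 on 1 side. Past Nfix on the other side, the Nodal antagonist gene Dand5 stood at 0.51 (SE 0.27) and the mitochondrial ribosome gene Gadd45gip1 at 0.07 (SE 0.20). The edgeR adjusted p of these 5 was 0.277 to 0.927.

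The other genes of the network were read from 5 lists. Over all genes, edgeR's unadjusted p was under 0.05 for 7.86% lower and 7.61% higher. DESeq2 called 3.85% lower and 3.69% higher. Of the 24 tested genes of Tal1 complex partners, 1 fell and 0 rose, and the median log2 fold change was -0.11, against -0.01 over all genes. The 1 was Gfi1b, a repressor of blood progenitors, at 6.79 and 8.42 CPM for WT against 0.302 and 0.312 CPM for KO (-4.61, SE 0.35, edgeR adjusted p = 0.0476). By edgeR's unadjusted p 9 stood lower and 4 higher under 0.05, and by DESeq2 7 fell and 4 rose. Of the partners that did not pass, those with the highest mean CPM, not divided by length, were the demethylase gene Kdm1a (0.16, SE 0.12) and Ssbp3 (0.69, SE 0.19), whose protein binds Ldb1. Per length the deacetylase gene Hdac1, added after its values were seen, stood above both (0.45, SE 0.13, edgeR adjusted p = 0.182, DESeq2 0.0381). Ldb1 itself stood at 105 and 113 CPM for WT against 96.1 and 80.1 CPM for KO (-0.31, SE 0.15, edgeR adjusted p = 0.410). No source used here describes the knockout allele, so Ldb1 reads do not check the labels.

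Of the 25 tested blood genes known as Tal1 targets, 4 fell and 0 rose, and 24 lay below 0 with a median of -1.40. Hbb-bh1, with 0 counts in both KO samples, is among the 24 and lies below the median at its bound too. Besides Gfi1b these were Hba-x, an alpha-type globin gene of the embryo, with 154 and 189 counts for WT against 1 and 2 counts for KO (edgeR adjusted p = 0.0378), the erythroid and megakaryocytic factor gene Nfe2 (-4.34, SE 0.36) and Itga2b, which encodes CD41 (-4.17, SE 0.20). By DESeq2 13 fell and 0 rose. Hba-x and Itga2b, and Hand1, Igfbp4 and Cnrip1 below, lie on chromosome 11, whose genes stood at a median log2 difference of -0.47 in KO. With chromosome medians subtracted edgeR called 4 of the genes in the 5 lists. Without KO sample A, and equally without KO sample B, edgeR called 0 of the genes in the 5 lists. Kit stood at -0.78 (SE 0.36) and Cdh5, the vascular cadherin gene, at 0.05 (SE 0.61), though -0.90 without KO sample A. The list was drawn up with earlier results of these data known and its direction is not independent evidence.

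Of 14 genes in the list of ETS and haemangioblast factors, 0 passed by edgeR. Its unadjusted p was under 0.05 for 7 lower and 0 higher, by DESeq2 3 fell and 0 rose, and the median was -1.18. The 3, named after their values were seen, were Gata2 (-1.39, SE 0.21), Fli1 (-1.21, SE 0.33) and Erg (-1.40, SE 0.52). Kdr, the gene of the sort marker, stood at 440 and 605 CPM for WT against 236 and 78.6 CPM for KO, and Ets1 at -0.48 (SE 0.16). Of 25 BMP and Smad genes acting on Id genes, 0 passed by edgeR. Its unadjusted p was under 0.05 for 3 lower and 1 higher, by DESeq2 3 fell and 0 rose, and the median was -0.26. The most abundant were Smad4 (0.06, SE 0.17) and the receptor gene Bmpr1a (0.44, SE 0.20).

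Of 17 tested genes of the other tissue-restricted bHLH factors, which also pair with E proteins, 0 passed by edgeR or DESeq2. The edgeR unadjusted p was under 0.05 for 0 lower and 1 higher, and the median was -0.27. The mesoderm factor gene Hand1 stood at 9.90 and 126 CPM for WT against 6.87 and 6.36 CPM for KO, and Hand2 at 0.982 and 33.2 CPM for WT against 1.25 and 1.29 CPM for KO. WT B alone was high for both. Hand2 stood at -4.71 without WT sample A and at 0.38 without WT sample B, so its direction rests on WT B.

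Genes with the most similar pattern were sought among 11320 genes with a mean of at least 5 CPM, by the root mean square difference between log2 CPM profiles, each centred on its own mean, over the 4 samples. Nearest to Tal1 were Igfbp4, which encodes a binding protein of insulin-like growth factors (0.08 log2 units), Myo7a (0.10), the endothelial exchange factor gene Fgd5 (0.13) and Csf2rb2 (0.15), a cytokine receptor gene that may share reads with its near-identical copy Csf2rb. Igfbp4 stood at 272 and 385 CPM for WT against 193 and 120 CPM for KO. For Lyl1 the nearest were the endothelial phosphatase gene Ptprb (0.25), Il16 (0.27), Cnrip1 (0.31) and Klhl6 (0.34). Ptprb stood at 52.5 and 36.1 CPM for WT against 16.4 and 5.58 CPM for KO. For Tcf3, the most abundant E protein gene per length, they were Pdf, Sc5d, Dyrk1a and Gpr89, all within 0.01 and all nearly flat. For Id3, the most abundant Id gene, they were Pappa (0.01), Flrt3 (0.03), Adssl1 (0.08) and Tgfb1i1 (0.08). With 4 samples such likeness is a description of these libraries.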

How the data were processed

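RNA-seq of 8 libraries gave raw read counts per Ensembl gene, as deposited by the authors with a transcript length per gene, per the file headers. ChIP-seq gave a peak list with, per the file headers, each peak's highest coverage (signal) in the ChIP and control library and an adjusted p-value from the authors. The submitters' processing notes name mm9 and DESeq. Aligner, counting tool, strand setting, peak caller and scaling: not given in the sources used here.

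Symbols were paired by Ensembl identifier for 20362 of 21868 genes. Chromosomes, neighbours and start regions came from RefSeq tables of GRCm38.p6. A chi-square per gene (at least 20 reads in the pair) had means of 1.065 to 1.101 for libraries 1 and 2 or 3 and 4 of a genotype, 12.764 to 28.465 for other pairs within one and 30.85 to 45.22 across genotypes, so the former were summed. Total counts per library were 11258493 to 13483294. After filterByExpr and TMM scaling, edgeR 4.0.16 (R 4.3.3) ran its robust quasi-likelihood test, with Benjamini-Hochberg adjustment over all genes. SE is the log2 fold change divided by the root of F. DESeq2 1.42.0, limma-voom (limma 3.58.1), other scalings and filters, a replicate block, 8 separate libraries, chromosome medians and left-out libraries or samples were alternatives. For profiles, log2 CPM took a prior count of 2. Simulated data, with the spread that edgeR fitted as a trend over abundance, were used to test the edgeR steps. Of 100 genes changed 2-fold in them 41 were called, and of 100 changed 4-fold 90. False calls were at most 9 in a run, so a difference of about 2-fold can be missed.

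The members and lists were chosen with earlier results of these data known. Some further list genes were named after their values were seen. Named genes were the members, Ldb1, up to 4 called (mean of at least 1 CPM) and the 2 uncalled genes per list with the highest mean CPM (not divided by length, which would put Hdac1, Ets2 and Mesp1 in place of Ssbp3, Ets1 and Hand2), 3 neighbours on each side and 4 nearest profiles.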

Additional observations from a re-analysis of the deposited data

How the results depend on the processing

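No member was called by edgeR under the RLE, upper quartile or library size scaling, either filter, chromosome medians or the block over A and B, nor by limma-voom. DESeq2 called 3, 8 libraries fitted separately called 4 and the same with library numbers 1 to 4 as a replicate block called 3, where libraries that differ by sampling noise count as replicates. Leaving out a single library gave 0 members called for each library. Where a sample is left out, the lone sample of its genotype is assumed to vary like those of the other, so members called there are not counted. Tal1, Tal2, Lyl1, Id2 and Id4 kept their direction under all 23 alternatives, with log2 fold changes of -1.61 to -0.73, -1.52 to -0.43, -3.63 to -1.79, 0.89 to 1.94 and -1.36 to -0.19. The number of samples limits the precision, and Lyl1 in KO B and Tal2 rest on few counts.

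Over all genes, edgeR called 21 lower and 10 higher, and 4 of the genes in the 5 lists. Without a filter these were 79, 72 and 11. With 1 CPM in at least 2 samples they were 5, 0 and 2. DESeq2 gave 596, 572 and 22, and limma-voom 3, 0 and 1. With A and B as a replicate block they were 5, 0 and 1. With 8 libraries separately they were 1892, 1968 and 41, and with the replicate block over 4 numbers 1635, 1775 and 41. With chromosome medians subtracted 3 genes were higher. Leaving out 1 library or sample gave 0 to 989 lower, 0 to 768 higher and 0 to 31 list genes, the lowest without KO A or KO B. Samples of one letter did not deviate together over genes as a whole (correlation -0.077 over 11075 genes). Sample B had more counts than A in both genotypes (26221496 against 23182551 for WT, 26775787 against 22674679 for KO). Such a correlation cannot show whether samples of one letter share a batch, which was not tested. Of 7 peaks, 5 had a ChIP coverage of at least 30, and the same 5 an adjusted p of at most 0.001, which leaves out the 2 Tal1 peaks of coverage 20. Windows narrowed by 25 kb on each side held a different set of 5, without the first Tal1 and the last Lyl1 peak.

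Directions that turned were those of values near 0, except for Hand2 (-3.75 with all samples). Over left-out libraries and samples, Tcf3 ranged from -0.0339 to 0.10, Tcf4 from -0.33 to 0.0497, Tcf12 from -0.17 to 0.61, Id1 from -0.44 to 0.46, Id3 from -0.38 to 0.87, Hand2 from -4.71 to 0.38, Cdh5 from -0.90 to 0.62, Smad4 from -0.14 to 0.28, Stil from -0.10 to 0.24 and Gadd45gip1 from -0.10 to 0.26. Cdh5 was -0.0841 by limma-voom, -0.0811 with the replicate block over A and B, -0.0842 with that over 4 numbers and -0.20 with chromosome medians subtracted, where Gadd45gip1 was -0.18. The cause was not tested.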
